A study of Mus musculus with 6 samples.

Results

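The 42 genes described here are markers of the cells that make up blood vessels in the brain: 16 endothelial surface and junction genes, 4 endothelial transcription factors, 5 transporters of the blood-brain barrier, 10 pericyte genes and 7 smooth muscle genes. They were taken by name as known vessel genes, with earlier results of these data known, and are 42 of the 53379 genes in the deposited table. All 42 were among the 21244 genes that passed a filter on low counts and were tested. RNA-seq counts came from cortices taken at postnatal day 0 from Npas3 heterozygotes (Npas3+/-, 3 libraries) and from wild-type cortex of the same age (WT, 3 libraries). NPAS3 is a neuronal PAS domain protein that regulates transcription in the nervous system. All 6 libraries are labelled C57BL/6 and were made from total RNA of flash-frozen cortices, and the labels name no sorting of cells. How the allele was made, the sex of the animals and whether a library is 1 animal or a pool are not given in the labels, and p-values therefore reflect the spread of these samples alone, which may be technical.

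The inner wall of a vessel is a sheet of endothelial cells held together by claudin and cadherin junctions. In the brain these cells also carry transporters that bring glucose, lipids and hormones across the blood-brain barrier and return drugs to the blood. Mural cells wrap that sheet: pericytes sit on capillaries, and contractile smooth muscle cells ring arteries and arterioles. Endothelial cells recruit pericytes through platelet-derived growth factor, and Wnt and norrin signals from neural cells induce the barrier while vessels grow into the developing cortex.

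Libraries held 67378231 to 87811574 counts. Npas3 itself, which checks the labels, stood at 15.0, 14.1 and 8.61 CPM (reads of a gene relative to the scaled total of its library) in Npas3+/- cortex, against 23.4, 28.4 and 25.7 CPM in WT cortex, a log2 fold change of -1.04 (SE 0.20, adjusted p = 0.27 with edgeR and 7.84e-05 with DESeq2). Npas3+/- replicate 2 lacked the RNA of Y-linked genes that the other 5 libraries held. Markers of cortical projection neurons summed to 2471, 3195 and 2327 CPM in Npas3+/- cortex and 2550, 2295 and 2416 CPM in WT cortex. The libraries also differed in regional content: the summed level of 12 striatal marker genes was 354, 376 and 416 CPM in Npas3+/- cortex, against 546, 551 and 352 CPM in WT cortex. That sum is mostly Meis2 (log2 fold change -0.07), and over the 12 genes the median log2 fold change was -1.27, with 11 lower in Npas3+/- cortex. The libraries of the genotypes overlapped for every one of the 12. The striatal score is the mean over these genes of the deviation of log2 CPM from the mean of all libraries. It was -1.25, -1.149 and 0.364 in Npas3+/- cortex, against 1.102, 1.407 and -0.474 in WT cortex. Npas3+/- replicate 3 thus scored above WT replicate 3, and striatal content did not follow genotype in every library. In bulk tissue, fewer cells of a type and less RNA per cell cannot be told apart.

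None of the 42 members passed the test between the genotypes, and most were bounded to changes within 2-fold. Npas3 itself did not pass with edgeR either, so a member that did not pass is not thereby shown to be unchanged. No member reached an adjusted p of 0.05 with edgeR (lowest adjusted p = 0.373), among 8 of 21244 genes that did (0.0377% of genes tested). None passed with DESeq2 either (lowest adjusted p = 0.225 over the 35 members that it gave one), where 2.77% of all genes passed. At an unadjusted edgeR p under 0.05 there were 3 members, Tek, Ramp2 and Slco1c1, all lower in Npas3+/- cortex. That is 7.14% of the members, against 12.1% of all genes tested, of which 6.29% were higher and 5.84% lower. With 1 library left out, 0 members were under 0.05 without Npas3+/- replicate 1 or without WT replicate 3, and 1 without Npas3+/- replicate 2. There were 2 without WT replicate 2, and 3 each without Npas3+/- replicate 3 and without WT replicate 1. A fit with fewer libraries has less power, and the changes of the 3 named members stayed negative. Their log2 fold changes then ran from -0.38 to -0.26 for Tek, -0.59 to -0.25 for Ramp2 and -0.24 to -0.13 for Slco1c1. The 3 libraries of each genotype did not overlap for 7 members: Kdr, Esam, Slc2a1 and Higd1b were higher in Npas3+/- cortex, and Tek, Slco1c1 and Mfsd2a were lower. These are 16.7% of the members, against 18.9% of all genes tested, of which 9.7% were higher and 9.18% lower.

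The log2 fold changes of the 42 members, Npas3+/- over WT, had a median of -0.04 and ran from -0.57 to 0.66. Higher values in Npas3+/- cortex were found for 16 members and lower values for 26. The median over all genes tested was -0.009, with 51.8% of genes lower. For 34 members the 95% interval of the change lay within 2-fold in either direction, and for 23 it lay within 1.5-fold. These intervals are per gene and not adjusted for the number of genes. The 7 members that averaged under 1 CPM (Ly6a, Slco1a4, Tbx18, Acta2, Myh11, Cnn1 and Des) all had intervals beyond 2-fold. A change of that size in at least 1 direction was therefore not excluded for them. Among the other 35, Sox17 was the only member with an interval beyond 2-fold. The summed level of all members was 476, 506 and 499 CPM in Npas3+/- cortex and 497, 515 and 527 CPM in WT cortex, with means of 494 ± 15.4 and 513 ± 14.9 CPM (SD, n = 3 each), so the sums overlapped. Without Npas3+/- replicate 2, which stood apart in its Y-linked genes, 0 members passed and the median was again -0.04.

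**Figure D1:**
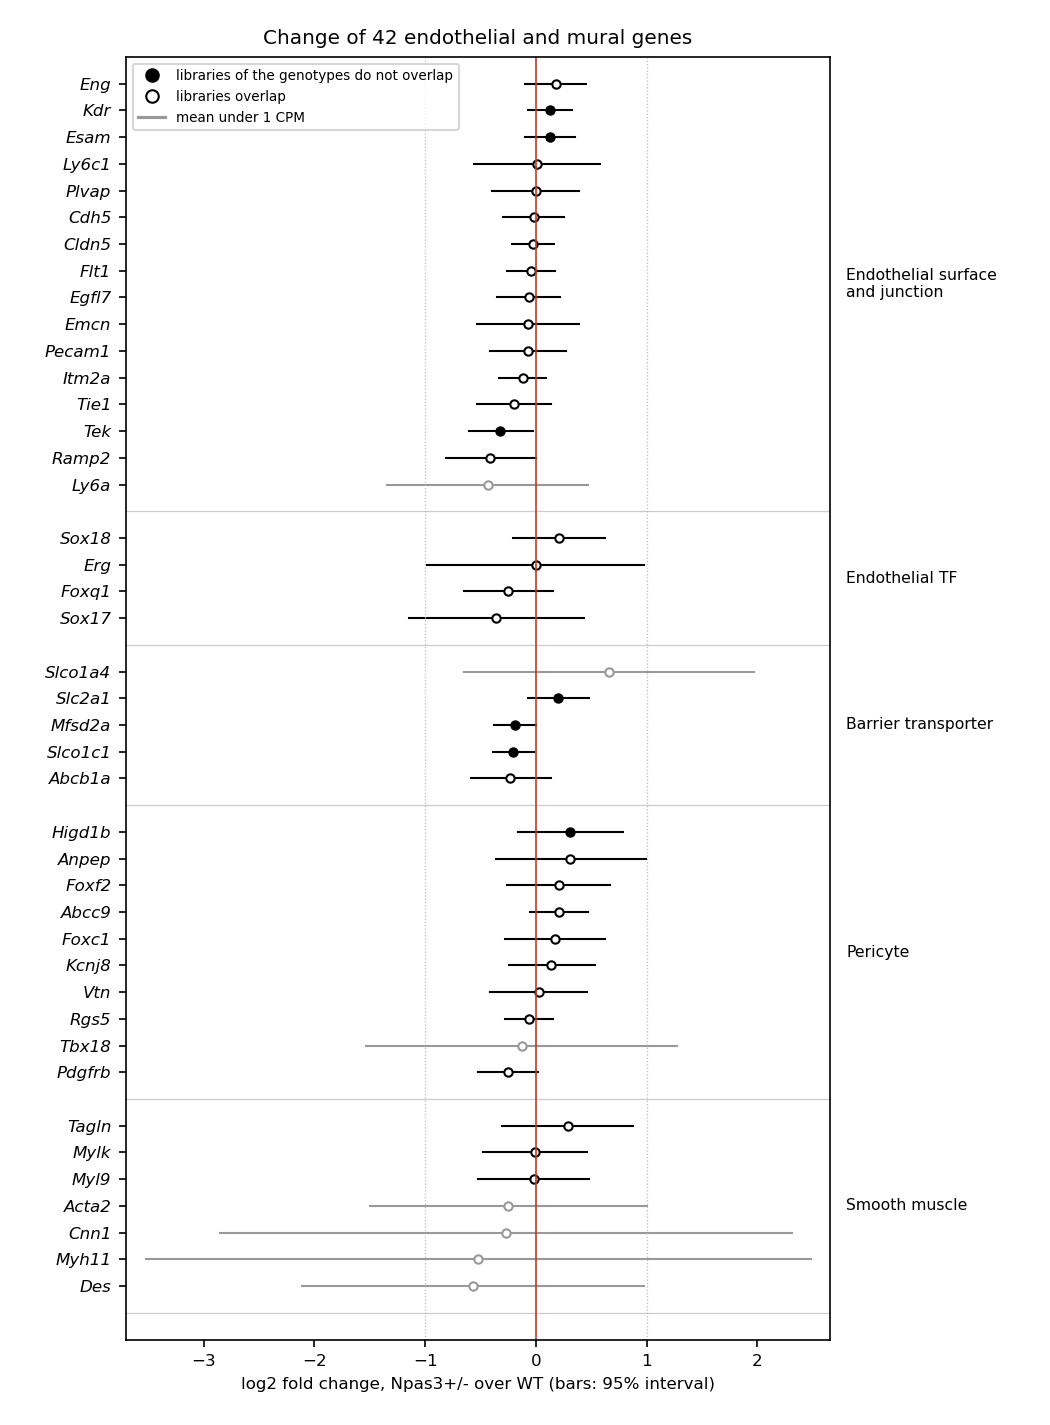
Log2 fold change, Npas3+/- over WT, with its 95% interval for each of the 42 members, grouped by role (n = 3 libraries each). The points lie between -0.57 and 0.66 and the intervals widen for members under 1 CPM.

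Levels per kilobase of exon, which allow genes of different length to be set side by side, spanned 994-fold from the highest member to the lowest. Cldn5, the tight junction claudin of brain endothelium, led with a mean of 30.8 CPM per kb, 2.01 times the level of Itm2a, a membrane protein gene enriched in endothelium (15.3 CPM per kb). The pericyte gene Rgs5 followed at 15.2 CPM per kb, close to Itm2a. The barrier transporters Slco1c1, Mfsd2a and Slc2a1 came next at 11.8, 8.58 and 8.49 CPM per kb, and the ranges of the last pair over the 6 libraries overlapped. At the bottom stood Myh11 at 0.031 CPM per kb and Cnn1 at 0.0663 CPM per kb, both genes of the smooth muscle contractile apparatus. The group medians per kb were 8.49 for barrier transporters, 2.6 for endothelial surface and junction genes, 2.24 for pericyte genes, 1.27 for endothelial transcription factors and 0.139 for smooth muscle genes. The defining markers of endothelium and pericytes were therefore present in every library, while Acta2, Myh11, Cnn1 and Des of smooth muscle were read at most 51 times in any library.

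**Figure D2:**
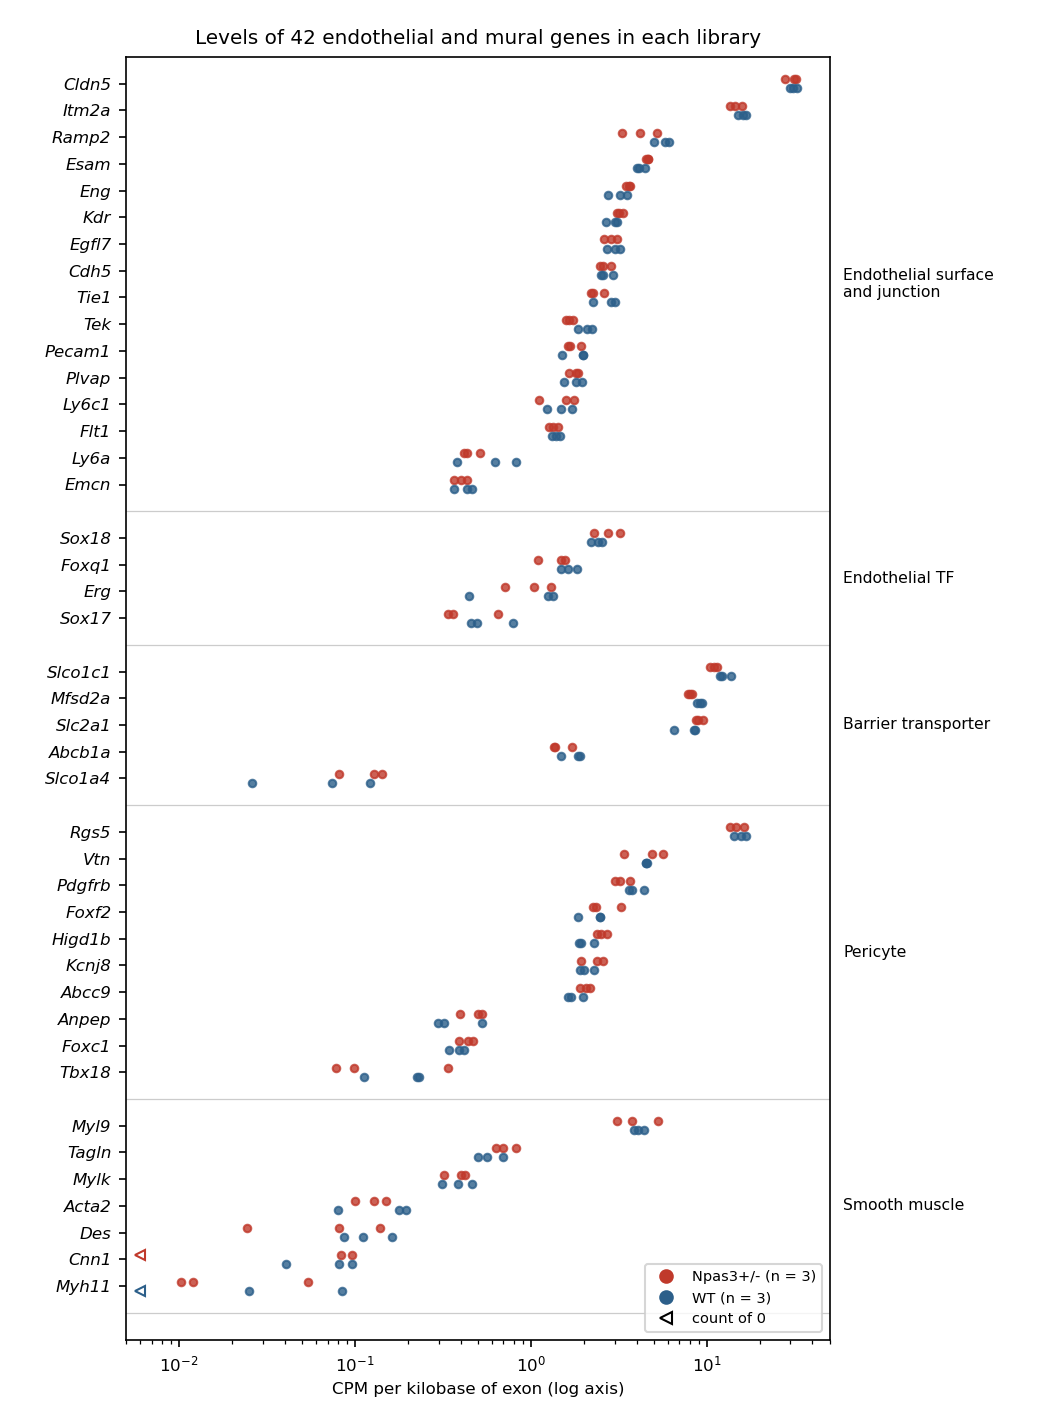
Level of each member in CPM per kb of exon on a log axis, 1 point per library (Npas3+/- above WT), ordered by level within each role group, with a triangle for a count of 0. Cldn5 stands highest with a mean of 30.8 CPM per kb and Myh11 lowest at 0.031 CPM per kb.

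The promoters of members whose libraries did not overlap between the genotypes are shown next, for those with an entry in the RefSeq promoter table (build GRCm38.p6). Esam and Higd1b had none there. Each line gives the 250 bases before a transcript start in that table, read along the gene's strand, with a motif match in capitals. RefSeq starts need not be those of GENCODE M21, whose coordinates are used for the genes: the windows of Slc2a1, Myl9 and Kdr reach past the GENCODE start, and that of Slco1c1 ends short of it. Myl9 is added as the only member whose window held a CArG box, the site of serum response factor in muscle genes. The windows are chr6:141524104-141524353 for Slco1c1 (plus strand), chr4:122961189-122961438 for Mfsd2a (minus), chr4:119108495-119108744 for Slc2a1 (plus), chr4:94739039-94739288 for Tek (plus), chr5:75978456-75978705 for Kdr (minus) and chr2:156775214-156775463 for Myl9 (plus).
Slco1c1: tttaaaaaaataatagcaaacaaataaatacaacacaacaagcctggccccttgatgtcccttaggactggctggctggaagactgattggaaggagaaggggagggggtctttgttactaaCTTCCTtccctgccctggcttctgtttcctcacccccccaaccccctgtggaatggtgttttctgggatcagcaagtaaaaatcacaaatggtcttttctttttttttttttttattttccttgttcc
Mfsd2a: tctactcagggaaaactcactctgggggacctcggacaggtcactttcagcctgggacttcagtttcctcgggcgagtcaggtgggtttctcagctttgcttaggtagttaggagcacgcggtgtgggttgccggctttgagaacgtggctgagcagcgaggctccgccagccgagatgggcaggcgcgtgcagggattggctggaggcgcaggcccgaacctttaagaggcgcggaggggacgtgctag
Slc2a1: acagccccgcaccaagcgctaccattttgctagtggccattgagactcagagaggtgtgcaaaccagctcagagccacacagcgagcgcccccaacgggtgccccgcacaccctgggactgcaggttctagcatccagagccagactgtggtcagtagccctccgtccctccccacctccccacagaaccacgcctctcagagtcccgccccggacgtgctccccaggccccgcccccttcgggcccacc
Tek: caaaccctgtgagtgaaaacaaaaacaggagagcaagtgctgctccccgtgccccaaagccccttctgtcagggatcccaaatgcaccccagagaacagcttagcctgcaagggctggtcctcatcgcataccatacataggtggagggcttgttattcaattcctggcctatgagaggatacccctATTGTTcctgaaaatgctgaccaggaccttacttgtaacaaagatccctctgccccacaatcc
Kdr: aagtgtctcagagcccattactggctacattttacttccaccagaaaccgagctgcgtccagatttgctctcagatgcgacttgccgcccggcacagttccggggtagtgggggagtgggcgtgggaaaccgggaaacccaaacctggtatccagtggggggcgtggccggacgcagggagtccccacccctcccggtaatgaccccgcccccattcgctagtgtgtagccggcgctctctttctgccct
Myl9: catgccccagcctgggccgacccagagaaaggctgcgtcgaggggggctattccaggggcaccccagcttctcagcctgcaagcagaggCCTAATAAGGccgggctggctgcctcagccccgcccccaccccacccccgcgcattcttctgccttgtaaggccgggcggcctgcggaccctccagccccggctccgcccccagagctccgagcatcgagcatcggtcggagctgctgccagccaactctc
Capitals mark an ETS core in Slco1c1 (on the opposite strand, beginning at position -128 from the RefSeq start), a SOX core in Tek (beginning at position -63) and the CArG box in Myl9 (beginning at position -161). The windows of Mfsd2a, Slc2a1 and Kdr held none of the motifs searched.

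ETS factors such as Erg, SOX factors such as Sox17 and Sox18, and forkhead factors such as Foxc1, Foxf2 and Foxq1 are themselves members, so their core letters were searched on both strands of the 29 member promoters that the table holds. The ETS core AGGAAG was found in 13 of 29, of which 11 were among the 16 endothelial and barrier promoters and 2 among the 13 mural promoters. It occurred in 29.5% of all 32851 promoters of the same length. Egfl7, Erg and Ly6c1 have several promoters in the table and were counted if any of them held the letters. The SOX core ATTGTT was found in 5 of 29 (Cnn1, Emcn, Erg, Slco1a4 and Tek), against 9.42% of all promoters. The forkhead core TGTTTAC was found in Abcb1a alone, against 3.17% of all promoters, and the CArG box in Myl9 alone, against 1.47%. The SOX and forkhead cores can share letters, but no member held both. These are matches of letters in a window, with no measurement of binding.

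Endothelial surface and junction genes were at nearly the same level in both genotypes. Of the 16, 4 were higher and 12 lower in Npas3+/- cortex, with a median log2 fold change of -0.05 (range -0.43 to 0.18), against -0.009 over all genes, and none passed the adjusted threshold. Their summed level was 212, 222 and 220 CPM in Npas3+/- cortex and 218, 233 and 227 CPM in WT cortex, with means of 218 ± 4.97 and 226 ± 7.85 CPM (SD, n = 3 each). These sums overlapped. The intervals of 13 of the 16 lay within 1.5-fold.

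Cldn5 (ENSMUSG00000041378, chr16:18776847-18778262) had 44.5, 39.6 and 45.5 CPM in Npas3+/- cortex, against 46.3, 43.9 and 42.1 CPM in WT cortex. The libraries interleaved, and the log2 fold change of -0.03 (SE 0.08) had an interval that bounds the fold between 0.859 and 1.12 (edgeR adjusted p = 0.921). Itm2a had 23.7, 27.6 and 25.3 CPM in Npas3+/- cortex and 28, 29.1 and 26.3 CPM in WT cortex, again with overlap (log2 fold change -0.12, SE 0.09, edgeR adjusted p = 0.639). Esam, an adhesion molecule of endothelial tight junctions, had 13.0, 13.3 and 13.4 CPM in Npas3+/- cortex and 11.9, 11.6 and 12.8 CPM in WT cortex. All 3 Npas3+/- libraries were above the WT libraries, by a log2 fold change of 0.13 (SE 0.10) that did not pass (edgeR adjusted p = 0.656). The other junction genes lay closer to 0: Cdh5, the cadherin of endothelial adherens junctions, was at -0.02 and Pecam1, an adhesion molecule of the same contacts, at -0.07.

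Of the receptors through which endothelial cells read growth factors, Tek was the member with the smallest p. Tek (ENSMUSG00000006386, chr4:94739289-94874976) encodes the angiopoietin receptor TIE2, which keeps vessels stable when bound by angiopoietin from mural cells. It had 7.49, 7.76 and 8.22 CPM in Npas3+/- cortex, against 8.81, 10.5 and 9.89 CPM in WT cortex. All 3 Npas3+/- libraries were below the WT libraries. The log2 fold change was -0.32 (SE 0.12, 95% interval -0.60 to -0.03), with an unadjusted p of 0.0334 and an adjusted p of 0.373 with edgeR and 0.279 with DESeq2. Tie1, the related receptor that modulates TIE2, was at -0.20 with overlapping libraries.

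Kdr (ENSMUSG00000062960, chr5:75932827-75978458), the main signalling receptor of vascular endothelial growth factor, lay on the other side. It had 27.9, 30.4 and 28.7 CPM in Npas3+/- cortex, against 24.2, 27.8 and 27.4 CPM in WT cortex. The lowest Npas3+/- library was just above the highest WT library, and the log2 fold change of 0.13 (SE 0.09, 95% interval -0.07 to 0.33) did not pass (edgeR adjusted p = 0.602). Flt1, the decoy receptor of the same growth factor, was at -0.04, and Eng, a co-receptor for the transforming growth factor beta family, was at 0.18, the highest log2 fold change of the 16.

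Ramp2, which makes the calcitonin receptor-like receptor respond to adrenomedullin, had the log2 fold change farthest from 0 among the 35 members at 1 CPM or more. It had 10.9, 17.3 and 13.8 CPM in Npas3+/- cortex, against 16.5, 19.1 and 20.2 CPM in WT cortex. Npas3+/- replicate 2 lay above the lowest WT library, so the genotypes overlapped. This gave a log2 fold change of -0.41 (SE 0.17), with an unadjusted p of 0.0488 and an adjusted p of 0.409 with edgeR and 0.225 with DESeq2. In the annotation, Ramp2 (chr11:101246028-101259546) shares 1103 exon bases on the same strand with its neighbour Vps25, a subunit of the endosomal sorting complex, and it is not stated how reads in shared exons were counted. Vps25 had 13.8, 10.3 and 12.2 CPM in Npas3+/- cortex and 6.44, 9.29 and 7.76 CPM in WT cortex, the opposite direction (log2 fold change 0.62, SE 0.17, adjusted p = 0.276 with edgeR and 0.04 with DESeq2). The sum of both genes was 24.7, 27.6 and 26.0 CPM in Npas3+/- cortex and 22.9, 28.4 and 27.9 CPM in WT cortex, a log2 ratio of means of -0.02. The sums overlapped between the genotypes.

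The remaining surface genes were at log2 fold changes of -0.06 for the secreted protein gene Egfl7, -0.07 for the sialomucin gene Emcn and 0.00 for Plvap, which marks fenestrated and immature vessels. Ly6c1 was at 0.01 and Ly6a at -0.43 (SE 0.39), where Ly6a was read 33 to 84 times per library. Both encode small surface proteins anchored in the membrane, and 32.8% of the 50-base windows of Ly6c1 occur also in Ly6c2, Ly6a or Ly6i, so their counts are uncertain.

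**Figure D3:**
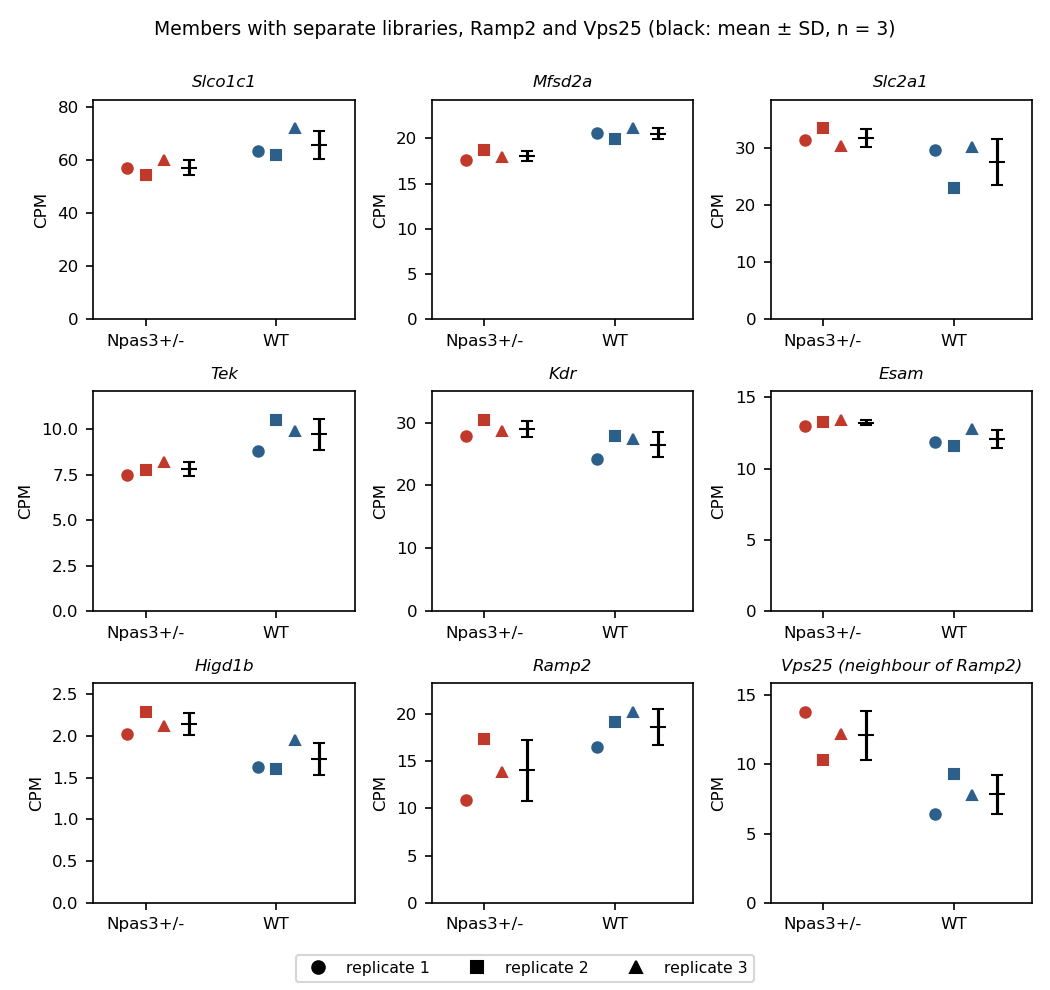
Level in CPM in each library of the 7 members without overlap, Ramp2 and its neighbour Vps25, with Npas3+/- libraries to the left of WT libraries and the mean ± SD in black (n = 3 each). Tek, Slco1c1 and Mfsd2a show all 3 Npas3+/- libraries below WT, and Kdr, Esam, Slc2a1 and Higd1b all 3 above.

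The 4 endothelial transcription factors varied more between libraries than between genotypes. Their log2 fold changes had a median of -0.13 (range -0.36 to 0.21), with 2 members on each side of 0, and the median turned to 0.10 when WT replicate 3 was left out. None had libraries that did not overlap, against 18.9% of all genes tested. The median coefficient of variation over the 6 libraries was 25%, against 8.89% for the surface and junction genes. Sox18, with Sox17 a regulator of arterial and early vessel identity, had 5.23, 4.43 and 3.73 CPM in Npas3+/- cortex and 3.56, 3.92 and 4.13 CPM in WT cortex (log2 fold change 0.21, SE 0.18, edgeR adjusted p = 0.695). Sox17 had 3.13, 1.61 and 1.73 CPM in Npas3+/- cortex and 2.36, 2.17 and 3.78 CPM in WT cortex (log2 fold change -0.36, SE 0.34, edgeR adjusted p = 0.727). Leaving out Npas3+/- replicate 1 gave -0.72, leaving out WT replicate 3 gave -0.06, and a fit with the striatal marker score as a further term, added after seeing the data, gave -0.84. Of the exon bases of Sox17, 804 lie opposite exons of Gm37587. Both sets of libraries overlapped, with 1 high library in each genotype for Sox17.

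Erg, an ETS factor that maintains endothelial identity, had 2.46, 3.61 and 4.5 CPM in Npas3+/- cortex and 1.54, 4.35 and 4.67 CPM in WT cortex. Its means were nearly equal at 3.53 ± 1.03 and 3.52 ± 1.72 CPM (SD, n = 3 each), but the 95% interval of its log2 fold change ran from -0.98 to 0.98. Foxq1, a forkhead gene enriched in brain endothelium, had 7.54, 5.32 and 7.23 CPM in Npas3+/- cortex and 7.85, 7.22 and 8.88 CPM in WT cortex. The highest Npas3+/- library was above the lowest WT library, and the log2 fold change was -0.25 (SE 0.17, edgeR adjusted p = 0.61). Of the exon bases of Foxq1, 3200 lie opposite exons of A530084C06Rik, whose own count was 0 in every library.

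The barrier transporters did not move as a group: Slco1c1 and Mfsd2a were lower and Slc2a1 higher in Npas3+/- cortex, each without overlap of the libraries. These are 60% of the 5 transporters, against 18.9% of all genes tested, and none passed the adjusted threshold. The median log2 fold change of the 5 transporters was -0.19, with 2 above and 3 below 0. Summed, they stood at 114, 116 and 116 CPM in Npas3+/- cortex and 122, 116 and 134 CPM in WT cortex, with means of 116 ± 1.09 and 124 ± 9.17 CPM (SD, n = 3 each).

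Slco1c1 (ENSMUSG00000030235, chr6:141524368-141570177) encodes a carrier that brings thyroid hormone into the brain. It had 56.9, 54.2 and 59.8 CPM in Npas3+/- cortex, against 63.2, 62.0 and 71.8 CPM in WT cortex. The log2 fold change was -0.21 (SE 0.08, 95% interval -0.39 to -0.02), with an unadjusted p of 0.0341 and an adjusted p of 0.373 with edgeR and 0.279 with DESeq2. Mfsd2a (chr4:122946850-122961188), which imports lysophosphatidylcholine-bound omega-3 fatty acids and restrains transcytosis, had 17.6, 18.7 and 18.0 CPM in Npas3+/- cortex, against 20.6, 19.9 and 21.1 CPM in WT cortex. The libraries of each genotype lay close together, and the log2 fold change was -0.19 (SE 0.08, 95% interval -0.38 to 0.00, unadjusted p = 0.0536, edgeR adjusted p = 0.42).

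Slc2a1 (chr4:119108711-119137983) encodes the glucose transporter GLUT1 and had 31.5, 33.5 and 30.4 CPM in Npas3+/- cortex, against 29.7, 23.0 and 30.3 CPM in WT cortex. Its genotypes were separated by 1 narrow gap, between 30.4 and 30.3 CPM, and the log2 fold change was 0.20 (SE 0.12, edgeR adjusted p = 0.547).

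Abcb1a, the P-glycoprotein efflux pump, had 7.54, 9.44 and 7.48 CPM in Npas3+/- cortex and 8.10, 10.2 and 10.4 CPM in WT cortex, with overlap (log2 fold change -0.23, SE 0.16, edgeR adjusted p = 0.616). Of its 50-base windows, 17.6% occur also in other genes, mainly its relatives Abcb1b and Abcb4. Slco1a4, an organic anion carrier of brain capillaries, was read only 80, 40 and 62 times in Npas3+/- cortex and 53, 40 and 12 times in WT cortex. Its log2 fold change of 0.66 (SE 0.56, 95% interval -0.65 to 1.97) was the highest of the 42, from few reads.

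Slco1c1 is also expressed by astrocytes, whose markers moved with genotype in these libraries. The summed level of 12 astrocyte and radial glia markers was 785, 708 and 904 CPM in Npas3+/- cortex, against 1069, 1153 and 1057 CPM in WT cortex, and 11 of the 12 were lower in Npas3+/- cortex. None of these markers was at 0. Their part in the level of Slco1c1 was not tested.

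No pericyte gene passed the adjusted threshold. Of the 10, 7 were higher and 3 lower in Npas3+/- cortex, with a median log2 fold change of 0.16 (range -0.25 to 0.31). The summed level was 122, 142 and 132 CPM in Npas3+/- cortex and 130, 138 and 133 CPM in WT cortex, with means of 132 ± 10.2 and 133 ± 3.91 CPM (SD, n = 3 each). The sum is carried by Rgs5, Pdgfrb and Abcc9 and did not differ beyond its spread.

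Rgs5 (chr1:169655501-169695813), a regulator of G protein signalling and the most abundant pericyte gene, had 61.4, 74.6 and 66.9 CPM in Npas3+/- cortex and 65.0, 75.8 and 71.5 CPM in WT cortex. The libraries interleaved (log2 fold change -0.06, SE 0.09, 95% interval -0.28 to 0.15, edgeR adjusted p = 0.831). Pdgfrb, the receptor through which endothelial platelet-derived growth factor recruits pericytes, had 16.5, 17.6 and 20.0 CPM in Npas3+/- cortex and 24.1, 20.6 and 19.9 CPM in WT cortex. Only Npas3+/- replicate 3 and WT replicate 3 overlapped, and the log2 fold change was -0.25 (SE 0.12, edgeR adjusted p = 0.437). Pdgfrb is also expressed by meningeal fibroblasts, whose markers summed to 89.1, 97.6 and 98.5 CPM in Npas3+/- cortex and 96.9, 101 and 88.9 CPM in WT cortex. Most of that sum was Pdgfra (log2 fold change -0.04), which oligodendrocyte precursors express too. Over the 10 fibroblast markers tested, 6 were higher and 4 lower in Npas3+/- cortex, with a median log2 fold change of 0.24, and 0 passed. Col3a1, a fibrillar collagen chain, had 2.69, 2.94 and 2.74 CPM in Npas3+/- cortex and 1.82, 1.74 and 2.08 CPM in WT cortex, without overlap (log2 fold change 0.57, edgeR adjusted p = 0.322). Slc6a13 and Aldh1a2 were at or near 0 and were not tested. The part of fibroblasts in the level of Pdgfrb was not tested.

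Abcc9 and Kcnj8 encode the subunits of the ATP-sensitive potassium channel of pericytes. Abcc9 had 18.3, 17.3 and 15.9 CPM in Npas3+/- cortex and 14.2, 16.6 and 13.7 CPM in WT cortex, with 1 WT library above the lowest Npas3+/- library (log2 fold change 0.21, SE 0.11, edgeR adjusted p = 0.508). Kcnj8 was at a log2 fold change of 0.14 with overlapping libraries. Higd1b, a hypoxia-inducible domain family gene used as a pericyte marker, had 2.03, 2.29 and 2.12 CPM in Npas3+/- cortex and 1.63, 1.6 and 1.95 CPM in WT cortex. It was the pericyte gene with no overlap between genotypes, but its log2 fold change of 0.31 (SE 0.20) did not pass (edgeR adjusted p = 0.592).

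Vtn, the vitronectin gene, was equally high on average in both genotypes but not equally even. It had 6.85, 11.5 and 9.88 CPM in Npas3+/- cortex and 9.15, 9.23 and 9.34 CPM in WT cortex, with SDs of 2.35 and 0.0949 CPM around means of 9.4 and 9.24 CPM (n = 3 each). Its log2 fold change was 0.03 (SE 0.19, edgeR adjusted p = 0.972). The transcription factors of brain pericytes, Foxf2 and Foxc1, were at 0.21 and 0.17, the peptidase gene Anpep at 0.31 and Tbx18, a T-box gene of mural cells, at -0.13. All of these had overlapping libraries, and Tbx18 was read between 28 and 141 times, with 970 of its exon bases opposite exons of D030062O11Rik.

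Smooth muscle genes were the least abundant and the least even group. Of the 7, 6 were lower and 1 higher in Npas3+/- cortex, with a median log2 fold change of -0.25 (range -0.57 to 0.29). None had an unadjusted edgeR p under 0.05, against 12.1% of all genes tested. None had libraries that did not overlap, against 18.9% of all genes tested, and 7 genes are too few to tell these shares apart. Their summed level was 9.58, 11 and 13.6 CPM in Npas3+/- cortex and 12.2, 10.7 and 11.8 CPM in WT cortex, with means of 11.4 ± 2.05 and 11.6 ± 0.743 CPM (SD, n = 3 each). Leaving out Npas3+/- replicate 3 gave -0.39 and Npas3+/- replicate 2 gave -0.05. Leaving out WT replicate 2 gave -0.03 and WT replicate 3 gave -0.06. The median turned to 0.05 with the striatal score as a covariate, and was -0.02 when genes under 1 CPM in 3 libraries were left out.

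Acta2, the smooth muscle actin that most often marks arterial walls (chr19:34241090-34255590), was read 25, 17 and 25 times in Npas3+/- cortex and 12, 36 and 28 times in WT cortex. That gave means of 0.279 ± 0.0552 and 0.332 ± 0.135 CPM (SD, n = 3 each), and the 95% interval of the log2 fold change ran from -1.5 to 1.0. Myh11, the smooth muscle myosin heavy chain, was read 8, 6 and 31 times in Npas3+/- cortex and 0, 16 and 46 times in WT cortex. Cnn1, calponin, was read 20, 0 and 20 times in Npas3+/- cortex and 15, 22 and 8 times in WT cortex. Des, the intermediate filament desmin, was read 8, 40 and 23 times in Npas3+/- cortex and 22, 51 and 30 times in WT cortex (log2 fold change -0.57, SE 0.66, edgeR adjusted p = 0.784), and its change was -0.13 without Npas3+/- replicate 1 and -1.19 without Npas3+/- replicate 2. For these 4 genes the libraries of 1 genotype differed by more than the genotypes did.

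Myl9, the regulatory light chain of smooth muscle and non-muscle myosin, and Mylk, the kinase that phosphorylates it, were better measured. Myl9 had 3.62, 4.36 and 6.16 CPM in Npas3+/- cortex and 5.11, 4.73 and 4.47 CPM in WT cortex (log2 fold change -0.02, SE 0.22, edgeR adjusted p = 0.981). Mylk had 3.63, 4.55 and 4.78 CPM in Npas3+/- cortex and 5.20, 3.51 and 4.36 CPM in WT cortex (log2 fold change -0.01, SE 0.20, edgeR adjusted p = 0.987). Both interleaved. Tagln, the actin-binding protein transgelin, had 1.64, 1.27 and 1.38 CPM in Npas3+/- cortex and 1.12, 1.0 and 1.39 CPM in WT cortex (log2 fold change 0.29, SE 0.25, edgeR adjusted p = 0.706). It was the 1 smooth muscle gene with a higher mean in Npas3+/- cortex. Of its exon bases, 1349 lie opposite exons of Pcsk7 and Gm48529, and without stated use of strand its reads cannot be told from theirs.

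Set against each other, the proportion of endothelial to mural genes overlapped between the genotypes, and the difference of their medians depended on the fit. The 25 endothelial and barrier members had a median log2 fold change of -0.06 and the 17 pericyte and smooth muscle members one of -0.01, a difference of -0.05. The difference was -0.21 when only genes at 1 CPM or more in 3 libraries were kept. It was -0.18 without Npas3+/- replicate 1 and -0.14 with the striatal score as a covariate. The endothelial and barrier members summed to 345, 353 and 354 CPM in Npas3+/- cortex and 355, 366 and 383 CPM in WT cortex, so each Npas3+/- sum was below each WT sum, with the nearest at 354 and 355 CPM. Mural members summed to 131, 153 and 145 CPM in Npas3+/- cortex and 142, 148 and 145 CPM in WT cortex, with overlap. Per kb, the summed endothelial level was 3.25, 2.69 and 2.83 times the mural level in Npas3+/- cortex and 3.07, 3.03 and 3.09 times in WT cortex. The Npas3+/- libraries lay on both sides of the WT range.

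**Figure D4:**
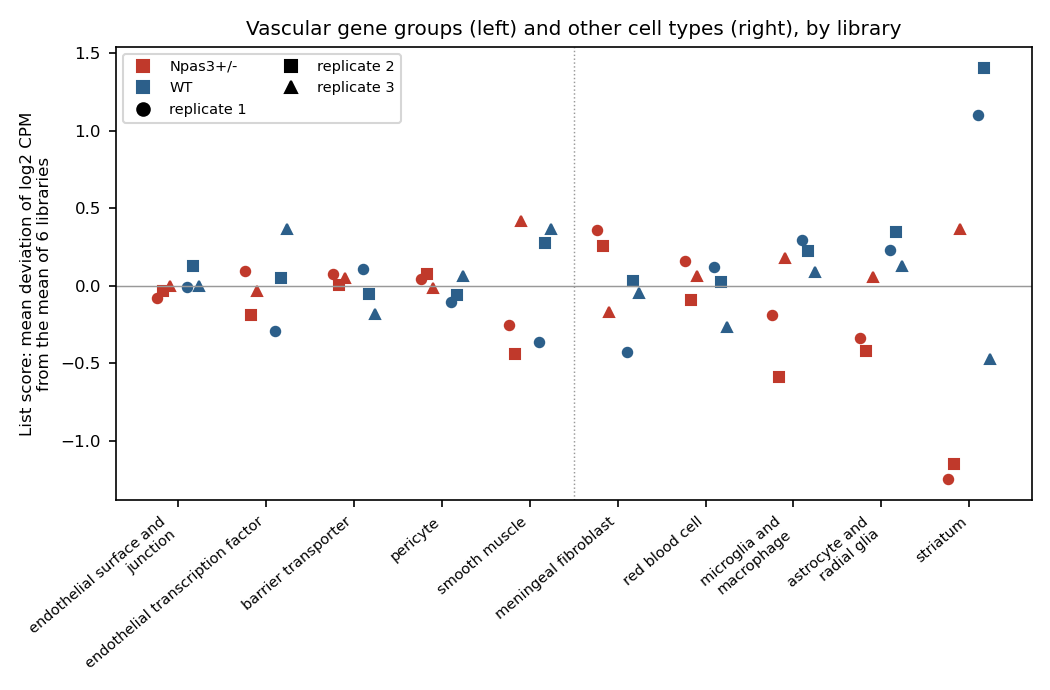
Score of each role group in each library, the mean over its members of the deviation of log2 CPM from the 6-library mean, Npas3+/- left of WT, with lists of other cell types on the right. Surface and junction genes stay between -0.081 and 0.129, while smooth muscle genes spread from -0.444 to 0.42 in Npas3+/- and from -0.361 to 0.363 in WT libraries.

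The scores of all 5 role groups overlapped between the genotypes. Smooth muscle genes scored -0.253, -0.444 and 0.42 in Npas3+/- cortex and -0.361, 0.275 and 0.363 in WT cortex. The transcription factors scored 0.097, -0.187 and -0.033 in Npas3+/- cortex and -0.294, 0.05 and 0.367 in WT cortex. Surface and junction genes scored -0.081, -0.033 and -0.003 in Npas3+/- cortex and -0.007, 0.129 and -0.005 in WT cortex. Pericyte genes scored 0.043, 0.076 and -0.015 in Npas3+/- cortex and -0.108, -0.06 and 0.065 in WT cortex. Barrier transporters scored 0.072, 0.002 and 0.051 in Npas3+/- cortex and 0.109, -0.051 and -0.183 in WT cortex. Their Npas3+/- scores lay inside the WT range and mostly toward its upper end, although the median log2 fold change of the group was -0.19. The score weighs each of the 5 transporters equally, including the little-read Slco1a4 (log2 fold change 0.66). Slco1a4 had 0.167 CPM (12 counts) in WT replicate 3, against 0.91, 0.52 and 0.821 CPM in Npas3+/- cortex. Other cells of the dissected tissue were also measured. Red blood cell markers summed to 234, 206 and 229 CPM in Npas3+/- cortex and 238, 223 and 185 CPM in WT cortex. Microglia and macrophage markers summed to 56.0, 47.9 and 69.5 CPM in Npas3+/- cortex and 71.9, 67.9 and 62.3 CPM in WT cortex. These sums overlapped, but all 10 microglia and macrophage markers tested were lower in Npas3+/- cortex (median log2 fold change -0.31), and 0 passed. Skeletal muscle markers, which could add contractile RNA, summed to 5.63, 5.20 and 5.01 CPM in Npas3+/- cortex and 5.70, 6.32 and 5.09 CPM in WT cortex, and Ckm, Tnnc2, Myog and Myod1 among them stayed under 10 counts in every library.

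Other genes of vessel growth, barrier induction and mural recruitment were read from the same fit, and no gene of these lists passed with edgeR. Of 23 vessel growth signalling genes tested, 9 were higher and 14 lower in Npas3+/- cortex (median log2 fold change -0.06). Nrp2, a co-receptor for semaphorins and lymphatic growth factor that neurons express too, had 12.4, 7.61 and 30.0 CPM in Npas3+/- cortex and 30.8, 84.4 and 60.9 CPM in WT cortex (log2 fold change -1.82, SE 0.54, adjusted p = 0.289 with edgeR and 0.141 with DESeq2). Vegfb, a growth factor of the same family as the ligand of Kdr, had 43.1, 42.4 and 40.7 CPM in Npas3+/- cortex and 34.9, 35.9 and 38.0 CPM in WT cortex (log2 fold change 0.21, SE 0.07, edgeR adjusted p = 0.323). Neither pair of genotypes overlapped. Vegfa, the ligand of Kdr, was at 0.17 (SE 0.07, edgeR adjusted p = 0.379), also without overlap. Angpt1, a ligand of Tek, was at -0.25 (SE 0.16) and Pdgfb, the ligand of Pdgfrb, at -0.04 (SE 0.19).

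Among the 15 Wnt and norrin barrier genes, 4 were higher and 11 lower in Npas3+/- cortex (median log2 fold change -0.12). Fzd4, the receptor that binds norrin, had 5.94, 6.94 and 7.69 CPM in Npas3+/- cortex and 9.58, 11.7 and 8.47 CPM in WT cortex (log2 fold change -0.53, SE 0.17, adjusted p = 0.304 with edgeR and 0.0923 with DESeq2). Its co-receptor gene Lrp5 was on the other side, at 20.6, 20.8 and 21.5 CPM in Npas3+/- cortex and 18.1, 13.8 and 16.9 CPM in WT cortex (log2 fold change 0.37, SE 0.12, adjusted p = 0.31 with edgeR and 0.103 with DESeq2). Both were without overlap. The ligand gene Wnt7a was at -0.21 and the target gene Apcdd1 at -0.06, with overlap in each. Reck was lower at -0.38 (SE 0.12, edgeR adjusted p = 0.323) and the norrin gene Ndp higher at 0.30 (SE 0.17, edgeR adjusted p = 0.534). The libraries of the genotypes did not overlap for Reck or Ndp.

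Of 16 mural recruitment genes, 9 were higher and 7 lower in Npas3+/- cortex (median log2 fold change 0.02), and 1, Notch3, passed with DESeq2. Notch3, the Notch receptor of mural cells that radial glia express too, had 24.3, 24.6 and 29.2 CPM in Npas3+/- cortex and 33.7, 36.2 and 33.2 CPM in WT cortex, without overlap. The change of -0.40 on the log2 scale (SE 0.10) passed only the DESeq2 test (adjusted p = 0.276 with edgeR and 0.0276 with DESeq2). The Notch target Hey2 had 1.71, 1.5 and 1.21 CPM in Npas3+/- cortex and 2.81, 2.32 and 2.1 CPM in WT cortex (log2 fold change -0.71, SE 0.23, edgeR adjusted p = 0.323), also without overlap. The astrocyte and radial glia markers given beside Slco1c1 moved with genotype here too, and their part in the level of Notch3 was not tested.

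The other endothelial genes, 33 in number, had a median log2 fold change of -0.04 with 11 higher and 22 lower in Npas3+/- cortex. Ets1, a transcription factor that endothelial and other cells express, had 31.4, 29.7 and 29.1 CPM in Npas3+/- cortex and 9.87, 25.4 and 11.2 CPM in WT cortex (log2 fold change 0.96, SE 0.33, edgeR adjusted p = 0.338). Nos3, the endothelial nitric oxide synthase, had 6.51, 8.13 and 6.65 CPM in Npas3+/- cortex and 5.70, 5.60 and 5.90 CPM in WT cortex (log2 fold change 0.31, SE 0.14, edgeR adjusted p = 0.438). Both were higher in every Npas3+/- library than in any WT library, with WT replicate 2 close to the Npas3+/- level for Ets1.

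The 17 other mural genes tested had a median of -0.04, with 8 higher and 9 lower. Nr2f2, a nuclear receptor of venous and mural cells that interneurons express too, had 14.7, 13.3 and 20.4 CPM in Npas3+/- cortex and 20.4, 30.9 and 30.0 CPM in WT cortex (log2 fold change -0.75, SE 0.21, adjusted p = 0.276 with edgeR and 0.0141 with DESeq2). Casq2, a calcium-binding protein of muscle, was read 5, 5 and 5 times in Npas3+/- cortex and 54, 63 and 12 times in WT cortex (log2 fold change -3.16, SE 0.73, edgeR adjusted p = 0.276). WT replicate 3 was nearer to the Npas3+/- libraries than to the other WT libraries for Casq2, as it was for the striatal markers. Npas3+/- replicate 3 had a higher striatal score than WT replicate 3 (0.364 against -0.474) but fewer Casq2 reads (5 against 12). The part of striatal tissue in Casq2 was not tested.

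Of the 12 genes of the vascular basement membrane, 7 were higher and 5 lower in Npas3+/- cortex (median log2 fold change 0.07), and all 12 had intervals within 1.5-fold. Agrn, the heparan sulphate proteoglycan agrin, had 784, 766 and 785 CPM in Npas3+/- cortex and 656, 656 and 740 CPM in WT cortex (log2 fold change 0.19, SE 0.06, edgeR adjusted p = 0.29). Lamb1, a laminin chain, had 50.4, 51.5 and 45.0 CPM in Npas3+/- cortex and 41.3, 36.3 and 43.4 CPM in WT cortex (log2 fold change 0.28, SE 0.09, edgeR adjusted p = 0.324). Neither overlapped, and neurons and neural progenitors express both genes as well.

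**Figure D5:**
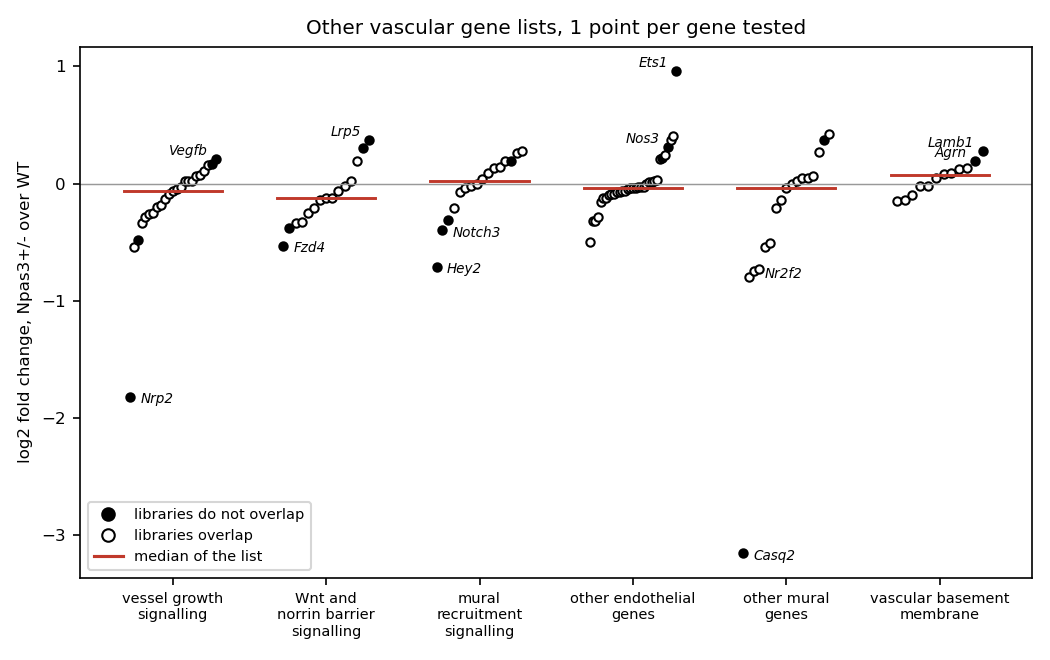
Log2 fold change, Npas3+/- over WT, of each tested gene in the 6 lists of other vessel genes, with the list median as a red bar and filled points where the libraries did not overlap. Medians lie between -0.12 and 0.07, and Nrp2 at -1.82 and Casq2 at -3.16 stand farthest from 0.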

How the data were processed

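Per the labels, total RNA of newborn cortex was sequenced in bulk from 3 Npas3+/- and 3 WT samples. The values deposited are unnormalized counts per gene in a single table. The submitters' processing notes name HISAT2 2.1.0, Trimmomatic 0.3.8 and featureCounts and the build mm10. The annotation, strandedness and how multi-mapping or overlapping reads were assigned are not given in the sources used here. Columns marked NP were taken as Npas3+/-. Identifiers were matched to GENCODE M21, 53274 of 53379, for symbols, coordinates and exon lengths.

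Counts were tested with edgeR 4.0.16 under R 4.3.3 (filterByExpr on genotype, TMM scaling, glmQLFit and glmQLFTest with genotype as the only term), with Benjamini-Hochberg adjustment over the 21244 genes tested and a threshold of 0.05. The biological coefficient of variation was 26.1%. SE is the absolute log2 fold change divided by the root of F, and intervals are 95% t intervals. CPM use the TMM library size, and scores use log2 CPM with a prior count of 2. DESeq2 1.42.0 and limma-voom (limma 3.58.1) were alternatives, with the others listed at the end, and the test was checked on simulated data. No pair of libraries agreed within sampling noise (chi-square per gene 39 to 53.6 within a genotype). The members, gene lists and tests were chosen with earlier results of these data known, so group counts and medians carry no test. Members given in full are, in each role group, the 3 with the highest level per kb and the 3 with the smallest p, and any without overlap of the libraries. In the other vessel lists these are the 2 with the smallest p. Abcb1a, Slco1a4, Myh11, Cnn1, Vegfa, Angpt1, Pdgfb, Wnt7a, Apcdd1, Reck and Ndp were added after their values were seen. Promoter sequences are from RefSeq (GRCm38.p6), which held 29 of the 42 members.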

Additional observations from a re-analysis of the deposited data

How the results depend on the processing

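No member that had an adjusted p passed under the 18 alternatives. The 1 CPM filter kept 36 of the 42 members, DESeq2 gave 35 an adjusted p, and the other alternatives tested all 42. The number at an unadjusted p under 0.05 ran from 0 to 4, and the lowest adjusted p of a member ran from 0.225 with DESeq2 to 0.83 with a striatal covariate. That covariate was chosen after seeing the data. The number of genes called over the whole table was 8 with edgeR, 425 with DESeq2, 5 with the striatal covariate, and between 7 and 16 when 1 library was left out. The replicate numbers did not pair the samples (correlations of deviations 0.037, -0.03 and -0.088, with only number 1 matching its own best), and the replicate block gave 3 genes, alone or with GC correction. Group medians moved by less than the SD of library scores within a genotype in all 42 cases with 1 library left out and in 82 of 84 others. That SD was 0.426 for smooth muscle genes and 0.254 for transcription factors, larger than the size of their medians. For these groups the comparison therefore cannot show that a median is stable. The smooth muscle median, -0.25, turned to 0.05 with the striatal covariate, and the transcription factor median, -0.13, to 0.1 without WT replicate 3. Both moves were smaller than that SD. The exceptions were the endothelial minus mural difference, -0.21 with the 1 CPM filter against -0.05, and the pericyte median, 0.08 with the striatal covariate against 0.16. Single members near 0 changed sign. Erg was at -0.01 with upper-quartile scaling, the 1 CPM filter, the Y-linked covariate and GC correction, and at -0.00 with no filter. Vtn was at -0.02 with limma-voom and GC correction, -0.01 with the block, -0.15 with the Y-linked covariate and -0.05 with GC correction and block. Mylk was at 0.00 with limma-voom and 0.05 with the striatal covariate, Cldn5 at 0.03 and 0.05 and Myl9 at 0.04 and 0.25 with the Y-linked and striatal covariates, Rgs5 at 0.01 with GC correction, with or without block, and Sox18 at -0.00 with the striatal covariate. With 1 library left out, Cldn5 ran from -0.06 to 0.03, Erg from -0.35 to 0.26, Rgs5 from -0.14 to 0.00, Vtn from -0.14 to 0.21, Myl9 from -0.25 to 0.14 and Mylk from -0.15 to 0.13. The cause of these changes was not tested. The 7 members under 1 CPM limit what this depth can show.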

Other observations

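Genes that separate kinds of vessel were read from lists written after the data had been seen, so their values are descriptions. Arterial genes were few and uneven: Gja5, a connexin of arterial endothelium, had 1.66, 0.338 and 1.38 CPM in Npas3+/- cortex and 0.414, 1.46 and 0.167 CPM in WT cortex, while Sema3g, a secreted semaphorin of arteries, had a log2 fold change of 0.00. Of 5 venous genes, 3 were higher and 2 lower in Npas3+/- cortex, with a median log2 fold change of 0.24. Their summed level was lower, at 45.4, 45.1 and 55.8 CPM in Npas3+/- cortex and 60.2, 68.3 and 65.3 CPM in WT cortex, without overlap. The 2 lower genes, Nr2f2 and Vcam1, passed with DESeq2, as did 2.77% of all genes, but not with edgeR. Among the lower ones, Vcam1, a leukocyte adhesion molecule, had 13.5, 11.8 and 18.3 CPM in Npas3+/- cortex and 25.2, 23.3 and 19.1 CPM in WT cortex. Its libraries did not overlap (log2 fold change -0.63, SE 0.18, adjusted p = 0.279 with edgeR and 0.0263 with DESeq2). Neural stem cells also express Vcam1, and the astrocyte and radial glia markers were lower in Npas3+/- cortex as given above. Their part in the level of Vcam1 was not tested.

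Of 3 lymphatic genes tested, 1 was higher and 2 lower in Npas3+/- cortex (median log2 fold change -0.12). The higher one was Flt4, the receptor of lymphatic growth factor that sprouting vessels use too. Flt4 had 4.88, 4.71 and 5.16 CPM in Npas3+/- cortex and 3.34, 3.55 and 4.31 CPM in WT cortex. All 3 Npas3+/- libraries were above the WT libraries, and the log2 fold change of 0.40 (SE 0.16) did not pass (adjusted p = 0.389 with edgeR and 0.316 with DESeq2). Lyve1, a hyaluronan receptor of lymphatic vessels and of macrophages at brain borders, was read 0, 0 and 0 times in Npas3+/- cortex and 0, 19 and 12 times in WT cortex. Esm1, which marks the tip cells of growing sprouts, was read 6, 54 and 5 times in Npas3+/- cortex and 5, 5 and 8 times in WT cortex, so 1 library alone held most of its reads.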
